A study of Mus musculus with 11 samples.

Results

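Cytochrome P450 genes (symbols of Cyp followed by a digit, protein coding) were followed in colon RNA of mice whose T cells lack the mitochondrial transcription factor TFAM. Of 22836 genes in the deposited table, 54 matched this rule by their Ensembl identifier. GENCODE names 101 such genes on GRCm39, the build used by the study, and the other 47 were not analysed here. Of the 54, 39 averaged 10 or more normalized counts across the 11 libraries and were tested. The 15 below that mean are described at the end.

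The series holds 11 colon libraries in 3 groups. Control mice (Tfam fl/fl, no Cre) gave 3 libraries, numbered 1, 2 and 3. Tfam fl/fl Cd4 Cre mice (called KO here, after their labels) gave 3, numbered 1, 3 and 4. The 5 libraries of transferred mice came from the same KO genotype after an injection of 6000000 to 7000000 CD4 T cells from 7-week-old Ly5.1 donors, so the transferred colon still belongs to a KO host. Control mice carry the same floxed Tfam allele, and the Cre is driven by Cd4, which is active in T cells of the CD4 and CD8 lineages because both pass through a stage that expresses it. The labels give no age or sex. The study examined the blood of transferred and non-transferred mice at 10 months of age, and RNA was extracted from 1 cm of frozen tissue.

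Cytochrome P450 enzymes hold a haem group through a cysteine and use oxygen and electrons to oxidize fat-soluble molecules. In the endoplasmic reticulum the electrons come from the reductase Por, often with help from cytochrome b5, and in mitochondria from the ferredoxin Fdx1 and its reductase Fdxr. Families 1 to 4 mostly clear foreign compounds, fatty acids and eicosanoids, and in the gut they meet compounds from food, bile and bacteria. Single enzymes outside these families carry out fixed steps in the making or breakdown of cholesterol, bile acids, oxysterols, vitamin D, retinoic acid and steroid hormones.

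The loop that carries this cysteine is shown for the members on which the results turn, because it is the most conserved stretch of the family and lets distant and near members be told apart by eye. Each line gives 30 coding bases read from the GENCODE transcript of the gene, 5′ to 3′, with the cysteine codon in capitals. The pattern searched was a phenylalanine, any 2 residues, glycine, any residue, arginine, histidine or proline, any residue, cysteine, any residue and glycine.
Cyp51: tttggagctgggcgtcatcgtTGTgttgga
Cyp2c55: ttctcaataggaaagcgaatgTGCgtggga
Cyp2c65: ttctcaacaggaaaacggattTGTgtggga
Cyp2c66: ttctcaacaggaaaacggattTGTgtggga
Cyp2e1: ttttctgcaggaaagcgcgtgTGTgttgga
Cyp2d22: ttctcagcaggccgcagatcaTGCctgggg
Cyp4b1: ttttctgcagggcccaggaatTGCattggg
Cyp4f15: ttctccgctgggcccaggaacTGCatagga
Cyp4f18: ttctcggctgggcccaggaacTGCatagga
The pattern was found in 48 of the 53 members with a complete coding frame. Cyp2c65 and Cyp2c66 carry the same 30 bases and are 96.3% identical over their coding sequence, whereas Cyp2c55 is 75.6% identical to Cyp2c65. Of the members, 13 are over 90% identical to another mouse Cyp gene in their coding sequence, most of them in the Cyp2c, Cyp2d and Cyp3a groups, so reads of these genes may have been split or lost in counting and their levels are uncertain.

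The Cyp2c55, Cyp2c65 and Cyp2c66 genes lie side by side on the plus strand of chromosome 19, and the 250 bases before their start sites are shown because these genes fell together (RefSeq, GRCm38.p6, plus strand, at chr19:39006769-39007018, chr19:39060756-39061005 and chr19:39113648-39113897). Capitals mark TATAAA, the TATA box letters.
Cyp2c55: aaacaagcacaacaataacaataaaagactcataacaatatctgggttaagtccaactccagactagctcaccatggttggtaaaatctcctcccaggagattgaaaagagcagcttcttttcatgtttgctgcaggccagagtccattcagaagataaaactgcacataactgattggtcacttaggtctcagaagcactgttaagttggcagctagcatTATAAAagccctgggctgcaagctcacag
Cyp2c65: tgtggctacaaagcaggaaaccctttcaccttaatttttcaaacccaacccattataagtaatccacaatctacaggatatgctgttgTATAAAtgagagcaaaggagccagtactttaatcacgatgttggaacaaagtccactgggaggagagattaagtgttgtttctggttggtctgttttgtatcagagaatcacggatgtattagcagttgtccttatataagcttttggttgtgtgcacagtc
Cyp2c66: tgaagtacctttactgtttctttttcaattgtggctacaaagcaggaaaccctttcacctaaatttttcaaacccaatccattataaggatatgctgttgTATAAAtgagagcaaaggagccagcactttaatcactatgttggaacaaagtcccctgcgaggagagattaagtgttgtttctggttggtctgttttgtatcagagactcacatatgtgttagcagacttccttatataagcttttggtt
The letters begin 29 bases before the start of Cyp2c55, 162 before Cyp2c65 and 150 before Cyp2c66. Only exact matches are marked. Cyp2c65 and Cyp2c66 also hold the similar letters tatataag closer to the start, so the capitals need not show where a TATA box lies. The upstream stretches of Cyp2c65 and Cyp2c66 are 83.2% identical. TATAAA, read on both strands of 250 upstream bases, was present in 13 of the 43 members with a RefSeq promoter and in 13% of 27025 mouse promoters. GCGTG, the core letters bound by the aryl hydrocarbon receptor, was present in 15 of the 43 and in 28.2% of all promoters. AGGTCA, letters bound by nuclear receptors, was present in 4 and in 13.8%, and TCACNCCAC, letters of a sterol regulatory element, in 0 and in 1.04%. These matches describe letters only.

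Libraries held 18214741 to 19178986 reads in genes, and values are normalized counts, that is reads divided by 1 factor per library, with 1 read worth 0.9127 to 1.103. Tests are from limma on log2(normalized count + 1), over 16781 genes, with p adjusted by Benjamini-Hochberg over all of them, and a gene was called at an adjusted p under 0.05. On this scale the change of genes with few reads is understated. In whole colon Tfam itself stood at 977 to 1083 normalized counts in control, 1040 to 1102 in KO and 865 to 1090 in transferred libraries. Xist, the RNA of X inactivation in female cells, stood at 4972 to 5749 in all 11. Nothing in the labels says that libraries of a group came from separate animals, and the p-values below cover the variation among these libraries. The study describes its data points as individual biological samples, and no libraries of a group were alike enough to be 1 library.

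Summed over all members, cytochrome P450 RNA was lower in KO colon than in control colon and higher in transferred colon than in KO colon. How far transferred colon stood from control differed between families, as given below. Of the 39 tested members 18 fell between control and KO (46.2%), where 22.9% of all tested genes fell. Only 3 members rose, Cyp1b1, Cyp51 and Cyp4f18 (7.69%), where 22.7% of all tested genes rose. The median log2 fold change of the 39 was -1.14, and that of all tested genes was 0.02. Between KO and transferred colon, 16 members were higher after transfer, where 17.0% of all tested genes were higher, and 2 were lower (Cyp51 and Cyp4f18), where 14.2% of all tested genes were lower. The median of the 39 was 0.69 in that comparison, and -0.02 over all genes. Between control and transferred colon 1 member was called, Cyp4b1, which was lower in transferred colon, where 0.453% of all tested genes were called lower and 1.14% higher. The median of the 39 was -0.18 and that of all genes -0.01. Without adjustment 8 members had a p under 0.05 in limma. The share of all tested genes under that level is not given here, so the 8 cannot be set against it. These comparisons share libraries and are not independent of each other. In bulk tissue, fewer cells of a type and less RNA per cell cannot be told apart.

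Members of the family took 0.737%, 0.892% and 0.838% of all reads in the control libraries and 0.243%, 0.112% and 0.145% in the KO libraries. Transferred libraries 1 to 5 gave 0.495%, 0.667%, 0.441%, 0.377% and 0.829%. No KO library reached the lowest control or transferred library, and transferred library 5 lay within the control range. Most of these reads came from 1 gene. Cyp2c55 took 69.2% to 76.2% of the family's reads in control, 2.62% to 44.1% in KO and 56.8% to 75.7% in transferred libraries. Reads of the 53 other members together made up 0.213% to 0.227% of all reads in control, 0.109% to 0.136% in KO and 0.163% to 0.201% in transferred libraries, so the order of the groups was the same without Cyp2c55.

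**Figure D1:**
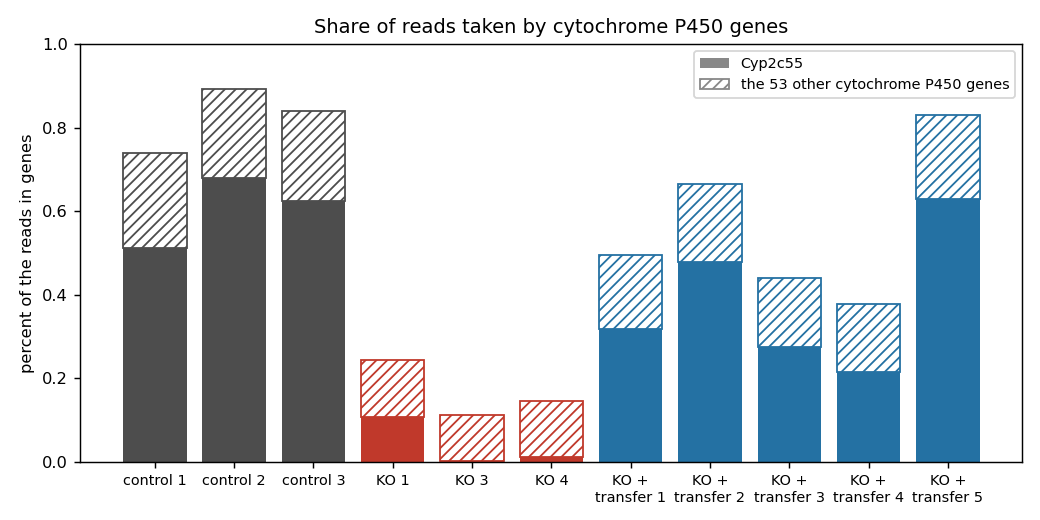
Percent of the reads in genes (vertical axis, from 0) that fell in cytochrome P450 genes, 1 bar per library, with the solid part for Cyp2c55 and the hatched part for the 53 other members. Control bars reach 0.737% to 0.892%, KO bars 0.112% to 0.243% and bars of transferred libraries 0.377% to 0.829%.

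Per kilobase of exon, Cyp2c55 had the highest mean level of the family in control colon, with 46100 normalized counts per kilobase, followed by Cyp2c65 with 4629, Cyp2d34 with 1658, Cyp3a13 with 1199 and Cyp4f40 with 800. In KO colon the order of group means per kilobase began with Cyp2c55 (3036), Cyp2d34 (1446), Cyp2c65 (1254), Cyp4f40 (843) and Cyp51 (709). The first place of Cyp2c55 there rested on KO library 1, with 19876 normalized counts against 543 in library 3 and 2281 in library 4. Cyp2d34 had 3187 and 5730 in KO libraries 3 and 4, more than Cyp2c55.

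Family 1 holds the classic targets of the aryl hydrocarbon receptor, a sensor of plant, bacterial and environmental ligands. Cyp1b1, which oxidizes polycyclic compounds, estrogens and retinoids and is found in stromal and myeloid cells, had 2.83, 3.98 and 11 normalized counts in control and 38.2, 62.0 and 8.76 in KO libraries. KO library 4 lay within the control range, and the groups overlapped. Its log2 fold change was 2.24 (standard error 0.80, adjusted p = 0.0394 from limma), and the call was lost without control library 1 (adjusted p = 0.117) or 2 (0.105) and without KO library 1 (0.105) or 3 (0.156). Without KO library 4 the value was 3.02. Transferred libraries held 4.56, 7.04, 5.90, 36.2 and 11, and neither comparison with them was called. Against KO, the adjusted p of 0.148 became 0.0498 without KO library 4 and 0.0438 without transferred library 4, the only transferred library above 11.

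Cyp1a1, the most inducible target of the receptor, held at most 7.72 normalized counts in any library and was not tested. The receptor gene Ahr, the partner genes Arnt and Arnt2 and the repressor gene Ahrr were not called between control and KO. Among 5 tested targets outside the family, Tiparp rose (log2 fold change 0.85, adjusted p = 0.000151 from limma) and Nqo1 and Ugt1a6a fell (log2 fold changes -0.88 and -1.45). Targets of the receptor thus moved in both directions, and over all tested genes 22.9% fell and 22.7% rose.

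The 5 tested enzymes of sterol, bile acid and oxysterol metabolism did not move as a group: 1 rose, 1 fell and 3 were not called between control and KO. Cyp51 (chr5:4123416-4154751, minus strand) removes the methyl group of lanosterol on the way to cholesterol. It had 2815, 3067 and 2599 normalized counts in control, 3754, 4226 and 4640 in KO and 2929, 2461, 2254, 2984 and 3271 in transferred libraries. Every KO library exceeded every control and transferred library. The log2 fold change was 0.57 between control and KO (standard error 0.14, adjusted p = 0.00674 from limma) and -0.61 between KO and transferred colon (standard error 0.13, adjusted p = 0.00476).

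Other genes of cholesterol synthesis rose more often than they fell. Of 22 on the list, which holds neither Cyp51 nor any other member, 12 rose and 2 fell between control and KO, with a median of 0.42. Over all tested genes 22.7% rose and 22.9% fell. Among those that rose were Sqle, the squalene epoxidase (log2 fold change 0.66, adjusted p = 0.000446 from limma), Mvd (0.69) and Lss, which makes lanosterol, the substrate of Cyp51 (0.94). Between KO and transferred colon 11 of the 22 were lower and 1 was higher after transfer. Over all tested genes 14.2% were lower and 17.0% higher.

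Cyp27a1, the mitochondrial sterol 27-hydroxylase of bile acid synthesis, had 508, 521 and 388 normalized counts in control, 305, 262 and 193 in KO and 434, 433, 460, 479 and 292 in transferred libraries. KO and control did not overlap, and transferred library 5 alone lay within the KO range. It fell by 0.91 on the log2 scale (standard error 0.21, adjusted p = 0.0048 from limma), and was higher after transfer by 0.73 (adjusted p = 0.0137), a call lost without KO library 4 (adjusted p = 0.0739).

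Cyp39a1, which hydroxylates 24-hydroxycholesterol, had 289, 266 and 359 normalized counts in control, 316, 204 and 191 in KO and 319 to 404 in transferred libraries, all of which exceeded the KO libraries. Its difference was called only between KO and transferred colon (log2 fold change 0.60, adjusted p = 0.0205 from limma), not without KO library 3 (0.0952) or 4 (0.104). Between control and KO the adjusted p of 0.116 became 0.0102 without KO library 1. Cyp7b1, the oxysterol 7-alpha-hydroxylase, had log2 fold changes of -0.52 between control and KO and 0.12 between KO and transferred colon, neither called.

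Cyp46a1, the cholesterol 24-hydroxylase of neurons, was low, with 9.42, 23.9 and 12.1 normalized counts in control and 7.83, 5.81 and 3.29 in KO libraries, which did not overlap. Its log2 fold change of -1.24 (adjusted p = 0.0642 from limma) was not called, nor was the difference after transfer (0.91, adjusted p = 0.147). Without transferred library 1 both were called (0.0349 and 0.0466). On the pathway that makes 7-alpha,25-dihydroxycholesterol, the ligand of the lymphocyte receptor Gpr183, Cyp7b1 is the member. There Gpr183 rose (log2 fold change 1.45, adjusted p = 0.00658) and so did Ch25h, the cholesterol 25-hydroxylase (1.34, adjusted p = 0.0496), whereas Hsd3b7, which breaks the ligand down, fell (-0.52, adjusted p = 0.0216). The call of Ch25h was lost without any 1 of the control or KO libraries and without transferred library 2, 3 or 4 (adjusted p up to 0.155), and that of Hsd3b7 without control library 1 or 3 or KO library 4 (up to 0.0738).

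In vitamin D and retinoic acid metabolism both tested members fell. Cyp26b1, which degrades retinoic acid, had 390, 90.5 and 23.2 normalized counts in control, 23.5, 16.5 and 8.76 in KO and 161, 101, 159, 77.2 and 83.2 in transferred libraries. Control spread over a wide range, its lowest library overlapped the highest KO library, and all transferred libraries exceeded all KO libraries. The log2 fold change was -2.56 (standard error 0.77, adjusted p = 0.0179 from limma) between control and KO, with the call lost without control library 1 (-1.55, adjusted p = 0.0515) or KO library 4 (0.0684). Without control library 3 the value was -3.55. After transfer it was higher by 2.79 (adjusted p = 0.0106), which became an adjusted p of 0.0552 without KO library 4.

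Of 8 tested genes of retinoic acid supply and response 3 fell and 1 rose, where 22.9% of all tested genes fell and 22.7% rose. Aldh1a1, a retinaldehyde dehydrogenase, fell by 1.65 on the log2 scale (adjusted p = 0.000562 from limma), the receptor Rarb, itself a retinoic acid target, by 2.58 (0.00144) and the binding protein Crabp1 fell by 2.81 (0.0034). Aldh1a3, another dehydrogenase, rose by 1.38 (0.00295).

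Cyp2r1, a vitamin D 25-hydroxylase, had 24.5, 24.9 and 18.7 normalized counts in control, 5.87, 10.7 and 14.2 in KO and 11.9, 11.1, 10.8, 17.1 and 11 in transferred libraries. Control lay above all 8 other libraries. The fall to KO, by 1.14 on the log2 scale (adjusted p = 0.0176 from limma), was no longer called without control library 1 (0.0519) or 2 (0.0577) or KO library 1 (0.0658), nor with quantile normalization (0.0564). The vitamin D receptor Vdr fell by 1.14 (adjusted p = 0.00323) and was higher after transfer by 1.07 (0.00462). Of 4 tested genes on that list 2 fell, Vdr and the calcium pump Atp2b1. Over all tested genes 22.9% fell.

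Family 2 is the largest, with 18 tested members that act on drugs, fatty acids and eicosanoids. Between control and KO 10 of them fell, 8 were not called and 0 rose, with a median of -1.36 on the log2 scale. Between KO and transferred colon 9 were higher and 0 lower, with a median of 0.96. Between control and transferred colon 0 were called in limma.

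Cyp2c55 (chr19:38995462-39031144), an enzyme of mouse colon that oxidizes arachidonic acid and is induced through xenobiotic receptors, had the highest level per kilobase. It had 91188, 128233 and 125220 normalized counts in control and 19876, 543 and 2281 in KO libraries 1, 3 and 4. Transferred libraries had 54923, 89052, 49924, 38361 and 126327. Each KO library lay below each control and transferred library, and KO library 1 stood far above the other 2 KO libraries. The log2 fold change between control and KO was -5.29 (standard error 0.96, adjusted p = 0.00107 from limma), and between KO and transferred colon 4.49 (standard error 0.86, adjusted p = 0.00294). Between control and transferred colon it was -0.80 (standard error 0.86, adjusted p = 0.638). The size of the fall depended on single KO libraries: the log2 fold change was -6.67 without KO library 1 and -4.08 without KO library 3, and after transfer 5.87 and 3.28. As a ratio of group means, KO stood at 0.0659 times control.

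Cyp2c65 (chr19:39049459-39082388) had 7733, 8341 and 10698 normalized counts in control, 3931, 886 and 2435 in KO and 6095, 9197, 6748, 5699 and 9158 in transferred libraries. Its neighbour Cyp2c66 (chr19:39102342-39175516) had 158, 192 and 227 in control, 90.1, 8.72 and 24.1 in KO and 110, 189, 111, 193 and 256 in transferred libraries. Both were lower in every KO library than in every other library, and both were highest in KO library 1 and lowest in KO library 3 among the KO libraries, as Cyp2c55 was. The log2 fold changes between control and KO were -2.11 (adjusted p = 0.00182 from limma) and -2.77 (0.00395), and after transfer 1.82 and 2.54. Without KO library 3 the values between control and KO were -1.51 and -2 and the differences after transfer 1.22 and 1.78, and without KO library 1 the values for Cyp2c66 were -3.62 and 3.39. Given the 96.3% identity of their coding sequence, the level of Cyp2c66 is uncertain.

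Further along chromosome 19 lie Cyp2c68 and Cyp2c69, which are each over 90% identical in coding sequence to another Cyp2c gene and whose values are uncertain for that reason. Cyp2c68 had a log2 fold change of -0.64 (adjusted p = 0.224 from limma) and was called only without control library 3 (0.048). Cyp2c69, below the mean of 10, had 44.3, 37.8 and 6.62 normalized counts in control, no read in any KO library and 0.953 to 8.05 in transferred libraries. The control mean was 29.1-fold above a floor of 3 reads over the KO group. This value was 21.9 without control library 1, 25.1 without control library 2 and 40.4 without control library 3.

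**Figure D2:**
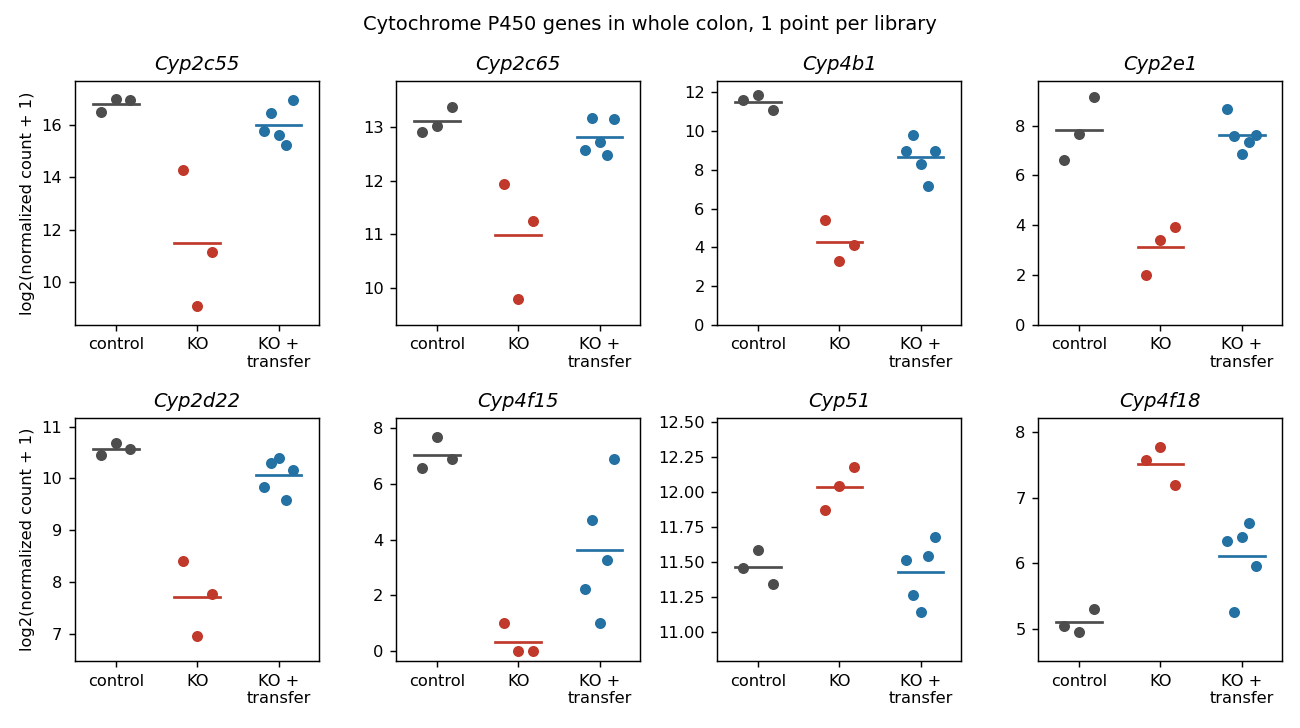
Normalized counts as log2(normalized count + 1) (vertical axes, which differ between panels) of 8 members, with 1 point per library and a line at the group mean. KO points lie below all control and transferred points for Cyp2c55, Cyp2c65, Cyp2e1, Cyp2d22 and Cyp4b1, and above them for Cyp51 and Cyp4f18.

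Of the 15 tested genes that encode xenobiotic and bile acid nuclear receptors and their partners, 4 fell and 2 rose. Over all tested genes 22.9% fell and 22.7% rose, so these counts are close to or below those shares. Nr1i3, the constitutive androstane receptor, fell by 2.75 on the log2 scale (adjusted p = 0.0197 from limma), a call lost without control library 2 or 3 or KO library 1 or 3 (adjusted p up to 0.0773). It had 11.3, 31.8 and 32.0 normalized counts in control, 1.96, 0.969 and 6.57 in KO and 3.65, 6.04, 3.93, 2.86 and 39.4 in transferred libraries, of which library 5 lay above the control range and the other 4 below it. Nr1i2, the pregnane X receptor, had 1565 to 1704 normalized counts in control and 1161 to 1581 in KO libraries (log2 fold change -0.24, adjusted p = 0.223). Nr1h4, the bile acid receptor, rose by 0.81 (adjusted p = 0.00662).

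The Cyp2d genes, which in the mouse are a tandem cluster on chromosome 15, did not move together. Of 7 tested, 2 fell, at the outer ends of the cluster, and the 5 between them were not called. Cyp2d22 (chr15:82254727-82264597) had 1404, 1644 and 1519 normalized counts in control, 339, 123 and 218 in KO and 915, 1254, 1337, 770 and 1152 in transferred libraries. KO lay below all others, and every transferred library lay below every control library. Cyp2d22 fell by 2.86 on the log2 scale (standard error 0.31, adjusted p = 4.9e-05 from limma) and was higher after transfer by 2.34 (adjusted p = 0.000226). Against control, the difference of transferred colon was -0.51 and was not called (adjusted p = 0.324).

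At the other end Cyp2d26 (chr15:82674300-82678509) had 1226, 1289 and 1665 normalized counts in control, 670, 434 and 396 in KO and 528, 614, 557, 373 and 1348 in transferred libraries. It fell between control and KO (log2 fold change -1.50, adjusted p = 0.00653 from limma) and, unlike Cyp2d22, was not called higher after transfer (0.35, adjusted p = 0.455). Transferred libraries 1 to 4 lay below every control library and library 5 lay among them. Against control its log2 fold change was -1.16 (adjusted p = 0.0974), and the adjusted p was 0.0174 without transferred library 5 and 0.042 by DESeq2.

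Cyp2d34, in the middle of the cluster, had 6284, 3009 and 5151 normalized counts in control, 3677, 3187 and 5730 in KO and 4645 to 5216 in transferred libraries, with full overlap (log2 fold change -0.18, adjusted p = 0.59 from limma). Cyp2d10 had 477, 130 and 195 in control and 362, 186 and 318 in KO libraries (0.27, adjusted p = 0.69). Cyp2d9 had 255, 69.6 and 266 in control and 553, 310 and 361 in KO libraries (1.23, adjusted p = 0.056), and it was called higher in KO without control library 1 (0.0383) or 3 (0.0344), without transferred library 5 (0.0412) and by DESeq2 (0.046). In these 3 genes and in Cyp2d12 and Cyp2d13 control library 2 was the lowest control library. Cyp2d9, Cyp2d10, Cyp2d12 and Cyp2d34 are each over 90% identical in coding sequence to Cyp2d11 or Cyp2d9, so reads may have passed between them.

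**Figure D3:**
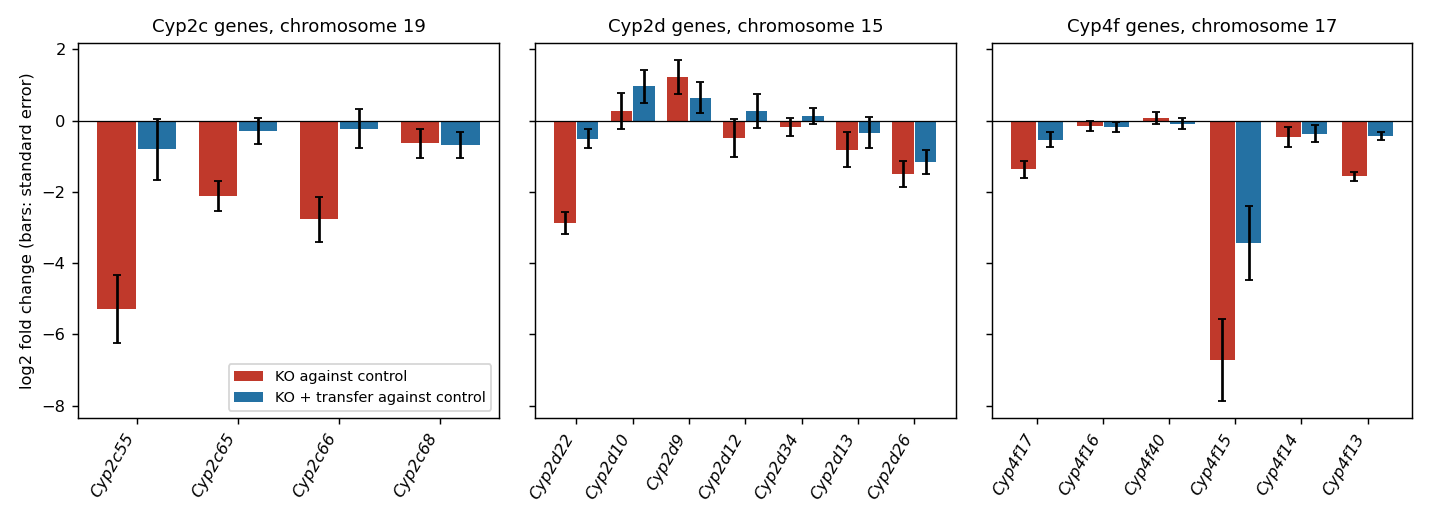
Log2 fold changes (vertical axis, bars with standard error) of tested Cyp2c, Cyp2d and Cyp4f genes in their order along chromosomes 19, 15 and 17, for KO against control (red) and transferred against control (blue). Cyp2c55, Cyp2d22 and Cyp4f15 have the longest red bars of their clusters (-5.29, -2.86 and -6.72), and the red bars of Cyp2d34 (-0.18) and Cyp4f40 (0.08) are near 0.

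Outside these clusters Cyp2e1, the ethanol-oxidizing enzyme that is abundant in liver and present in fat, had a KO mean 0.0312 times its control mean. It had 98.0, 204 and 560 normalized counts in control, 2.94, 9.69 and 14.2 in KO and 401, 190, 116, 162 and 194 in transferred libraries. KO libraries lay far below the rest, and control and transferred libraries overlapped. Its log2 fold change was -4.70 (standard error 0.64, adjusted p = 0.000197 from limma), and after transfer 4.50 (standard error 0.58, adjusted p = 0.000366). Without control library 1 the first of these values was -5.30, and without control library 3 it was -4.05. The fat cell hormone gene Adipoq had 291, 464 and 1075 in control, 1.96, 39.7 and 105 in KO and 830, 316, 333, 489 and 285 in transferred libraries, and it ordered the control libraries and the KO libraries as Cyp2e1 did. In the transferred libraries library 1 was highest for both genes, but the order of the other 4 differed. All 11 fat cell markers fell between control and KO, with a summed level of 8255 to 21650 in control, 2273 to 3083 in KO and 7817 to 14104 in transferred libraries. Their part in the fall of Cyp2e1 was not tested.

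Cyp2s1, an enzyme of epithelia that acts on retinoids and eicosanoids, had 2199, 2551 and 2014 normalized counts in control, 928, 711 and 961 in KO and 2382, 2172, 1930, 1707 and 1796 in transferred libraries. Its fall by 1.38 on the log2 scale had a small error (standard error 0.15, adjusted p = 5.88e-05 from limma), as had the difference after transfer (1.21, standard error 0.14, adjusted p = 0.000204). Cyp2w1, known from fetal gut and colon tumours in humans, had 46.2, 66.6 and 69.5 in control, 22.5, 9.69 and 11 in KO and 32.4 to 90.9 in transferred libraries, and fell by 2.07 (adjusted p = 0.00145). Both were lower in every KO library than in every other library.

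Cyp2f2, which activates naphthalene in the airway, was scarce, with 13.2, 14.9 and 12.1 normalized counts in control, 2.94, 0.969 and 1.10 in KO and 11.1 to 27.4 in transferred libraries, and fell by 2.50 on the log2 scale (adjusted p = 0.000743 from limma). Cyp2u1, a fatty acid hydroxylase, fell by 1.33 (adjusted p = 0.004). The arachidonic acid epoxygenases Cyp2j6 and Cyp2j9 were not called in any comparison, but without KO library 1 Cyp2j9 was called lower in KO than in control (adjusted p = 0.00326 from limma, against 0.0954) and higher after transfer (0.0103, against 0.228). Cyp2j6, at 1742 to 2507 normalized counts in control and 2035 to 2470 in KO libraries, had a log2 fold change of 0.11 (standard error 0.23).

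Family 3 holds the main drug-clearing enzymes of liver and gut. Of its 3 tested members 1 fell between control and KO and 0 were called higher after transfer. Its 4 members in the table summed to 3429, 4793 and 4021 normalized counts in control and 1606, 1206 and 1793 in KO libraries. Transferred libraries summed to 1643, 2704, 1384, 1937 and 4283, and all but library 5 lay below the control range. Cyp3a13, the intestinal form of the mouse, had 3069, 4677 and 4010 normalized counts in control, 1570, 1203 and 1788 in KO and 1552, 2585, 1305, 1922 and 4258 in transferred libraries. It fell by 1.36 on the log2 scale (standard error 0.36, adjusted p = 0.00922 from limma). After transfer the difference was 0.50 (adjusted p = 0.261), with library 5 in the control range and the other 4 below it. Against control it was -0.86 (adjusted p = 0.18), or called without transferred library 5 (adjusted p = 0.0294).

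Cyp3a44 and Cyp3a25, each over 90% identical in coding sequence to another Cyp3a gene, varied widely between control libraries. Cyp3a44 had 231, 68.6 and 5.51 normalized counts in control and 4.89, 1.94 and 0 in KO libraries, and Cyp3a25 had 116, 38.8 and 5.51 in control and 31.3, 0.969 and 1.10 in KO libraries. Neither was called (log2 fold changes -4.19 and -2.61, adjusted p = 0.0537 and 0.0822 from limma). Without control library 3, the low library of both, they were called (adjusted p = 0.0191 and 0.0196), and Cyp3a44 was also called by edgeR (adjusted p = 0.02), by DESeq2 (0.00738), with a pseudocount of 10 (0.0486) and with only both groups in the fit (0.0254). Leaving out KO library 1 gave an adjusted p of 0.00856 for Cyp3a25, and leaving out transferred library 2 or 5 gave 0.0458 and 0.0258 for Cyp3a44. After transfer Cyp3a25 was higher by 2.69 (adjusted p = 0.0652), which was called without control library 3 (0.0392) or KO library 1 (0.00802) and with only both groups in the fit (0.0474).

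Family 4 hydroxylates fatty acids and eicosanoids at the end of the chain. Of 9 tested members 4 fell, 1 rose and 4 were not called between control and KO. After transfer 4 were higher and 1 was lower, with a median of 0.08 on the log2 scale. The 11 members in the table summed to 10524, 11055 and 10227 normalized counts in control and 5562, 5741 and 6602 in KO libraries. Transferred libraries summed to 6355, 7098, 5916, 5996 and 9020, and each lay below every control library. These sums include Cyp4b1, whose values follow. Without Cyp4b1, transferred library 5 would not lie below control, whereas the other transferred libraries would. Cyp4b1 (chr4:115476281-115504999, minus strand) had the largest fall of all 39 on the log2(normalized count + 1) scale, with a KO mean 0.00741 times the control mean. Cyp4f15, with a single read in the KO group, cannot be ranked against it. Cyp4b1 had 3161, 3713 and 2201 normalized counts in control, 42.1, 8.72 and 16.4 in KO and 497, 876, 317, 142 and 510 in transferred libraries. The 3 groups did not overlap. The log2 fold change was -7.25 between control and KO (standard error 0.62, adjusted p = 1.36e-05 from limma) and 4.36 between KO and transferred colon (standard error 0.55, adjusted p = 0.000337). Against control, the log2 fold change of transferred colon was -2.89 (standard error 0.55, adjusted p = 0.0307). That call was lost without control library 1 (adjusted p = 0.0838), 2 (0.187) or 3 (0.0572), without transferred library 1 (0.0676) or 3 (0.071), without the variance trend (0.0539) and with only both groups in the fit (0.062), whereas the fold change lay between -3.17 and -2.52 with any library left out.

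In the Cyp4f cluster of chromosome 17, Cyp4f15 (chr17:32904421-32922640), a leukotriene and fatty acid hydroxylase, had 93.3, 207 and 118 normalized counts in control, 0.979, 0 and 0 in KO and 3.65, 25.1, 0.983, 8.57 and 118 in transferred libraries. KO libraries held a single read in all. Transferred libraries spread from the KO level to the control level. Its fold change on the log2 scale was -6.72 (standard error 1.16, adjusted p = 0.000793 from limma), a value that depends on the added count of 1. After transfer it was higher by 3.29 (adjusted p = 0.0321), and this call was lost without KO library 3 (0.103) or 4 (0.101), without transferred library 2 (0.0671), with a pseudocount of 10 (1.35, adjusted p = 0.132) and with only both groups in the fit (0.0574). Against control, the difference of -3.44 (adjusted p = 0.109) was called without transferred library 5 (0.02). The difference after transfer was 2.46 without that library and 3.94 without transferred library 3.

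The urea cycle gene Cps1, on the hepatocyte marker list and also expressed by intestinal epithelium, had 216, 182 and 127 normalized counts in control, 0, 0 and 1.10 in KO and 5.48, 50.3, 0.983, 1.91 and 423 in transferred libraries, with library 5 highest and library 2 next for both genes. Of the 39 tested members, 13 were highest in transferred library 5 among the transferred libraries, including Cyp2c55, Cyp2d26, Cyp3a13 and Cyp4f15, and 10 were lowest there. The shares over all tested genes are not given here, so these counts are not read as a trait of the members. Over all genes library 5 also stood apart from transferred libraries 1, 3 and 4 (chi-square of reads per gene 110, 90.2 and 93.4). Other pairs of transferred libraries gave 21.9 to 50.3.

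Cyp4f13 (chr17:33140972-33166434, minus strand) had the smallest adjusted p of the family. It had 1514, 1709 and 1481 normalized counts in control, 588, 451 and 564 in KO and 1092, 1279, 1164, 1062 and 1265 in transferred libraries. The 3 groups did not overlap, with transferred libraries between the others. It fell by 1.56 on the log2 scale (standard error 0.12, adjusted p = 8.37e-06 from limma), was higher after transfer by 1.14 (adjusted p = 9.38e-05) and stood below control by 0.42 after transfer (adjusted p = 0.0735), which was called without transferred library 5 (0.0468) and by DESeq2 (0.00785).

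Cyp4f17 had 122, 95.4 and 128 normalized counts in control, 48.9, 45.5 and 37.2 in KO and 84.9, 93.6, 87.5, 85.7 and 50.4 in transferred libraries, and fell by 1.37 on the log2 scale (adjusted p = 0.00097 from limma). After transfer it was higher by 0.84 (adjusted p = 0.0138, or 0.0646 without KO library 4). Every transferred library of Cyp4f17 still lay below every control library, a difference of -0.53 that was not called (adjusted p = 0.219 from limma). Between and beside these genes Cyp4f16, Cyp4f40 and Cyp4f14 were not called in any comparison, with log2 fold changes of -0.15, 0.08 and -0.46 between control and KO. Cyp4v3, a fatty acid hydroxylase on chromosome 8, had 165, 211 and 163 in control and 271, 212 and 176 in KO libraries (0.28, adjusted p = 0.301).

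Cyp4f18 (chr8:72742313-72763478, minus strand), which inactivates leukotriene B4 in mouse neutrophils, was the member of family 4 that rose. It had 32.0, 29.8 and 38.6 normalized counts in control, 191, 219 and 145 in KO and 80.3, 37.2, 83.5, 97.2 and 61.3 in transferred libraries. KO lay above all others, and transferred libraries lay between, with library 2 just inside the control range. The log2 fold change was 2.42 (standard error 0.32, adjusted p = 0.000154 from limma) between control and KO and -1.40 (adjusted p = 0.0039) after transfer. Against control it was 1.02 (adjusted p = 0.0909), which was called without transferred library 2 (0.015) and by DESeq2 (0.0122). All 7 tested neutrophil markers rose, with a summed level of 68.8 to 114 normalized counts in control, 1859 to 5649 in KO and 71.4 to 396 in transferred libraries. All 10 B and plasma cell markers rose as well. Their part in the rise of Cyp4f18 was not tested.

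Cyp20a1, a conserved member with no established substrate, had 232 to 358 normalized counts in control and 336 to 375 in KO libraries (log2 fold change 0.26, standard error 0.20) and was not called in any comparison.

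**Figure D4:**
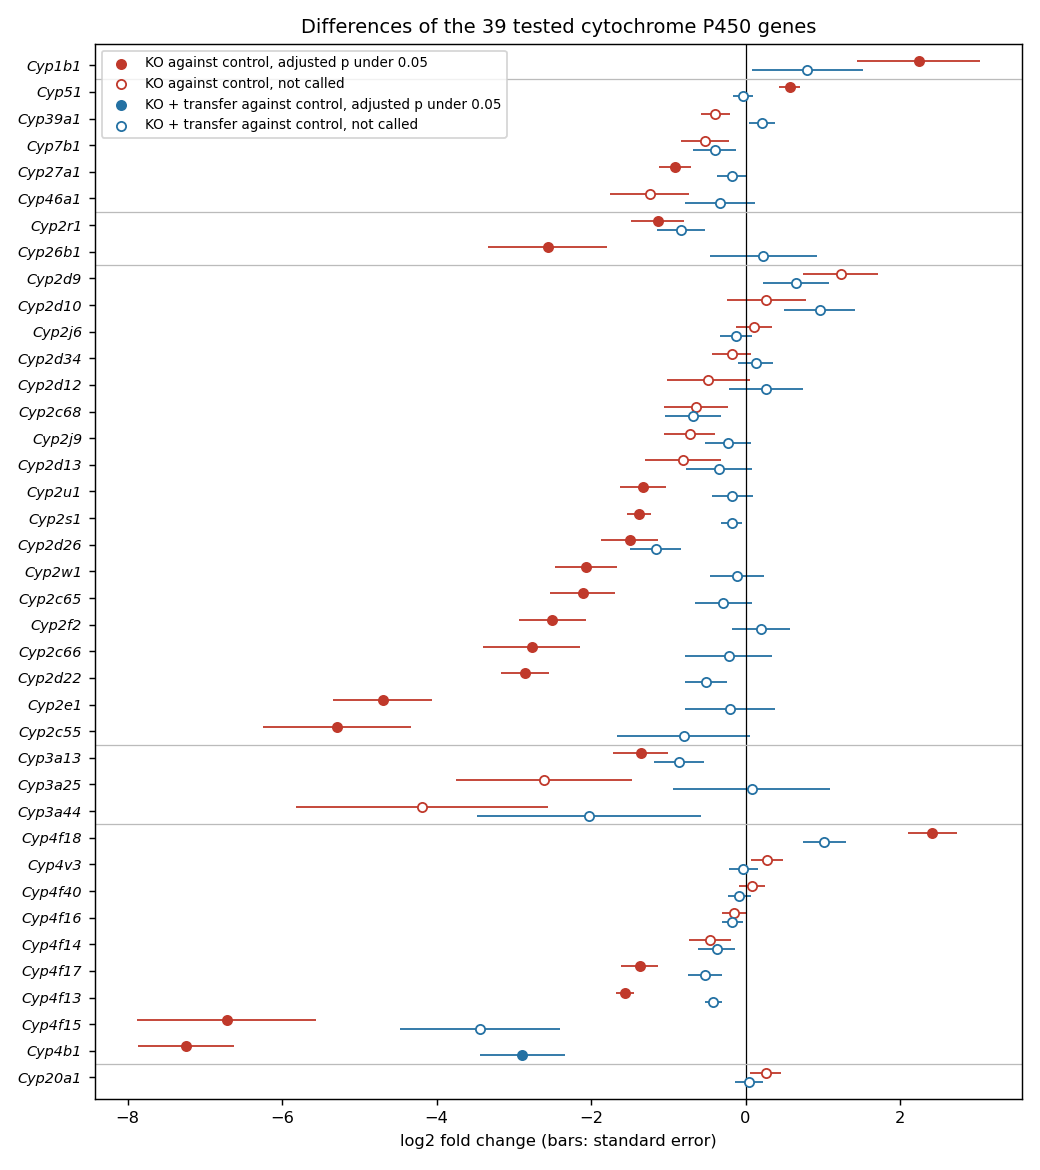
Log2 fold change with standard error (horizontal axis) of the 39 tested members, grouped by role and separated by grey lines, for KO against control (red) and transferred against control (blue). Filled points were called at an adjusted p under 0.05. Red points are filled for 21 members and blue points for 1, Cyp4b1.

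The genes that supply these enzymes with electrons and haem were followed as well. Of 9 tested electron donors and cytochrome b5 genes 5 fell and 0 rose between control and KO. Over all tested genes 22.9% fell and 22.7% rose. Por, the reductase that serves the P450 enzymes of the endoplasmic reticulum, had 4349, 4628 and 6145 normalized counts in control, 2450, 2015 and 1899 in KO and 3100, 4739, 3640, 3107 and 4973 in transferred libraries. It fell by 1.24 on the log2 scale (adjusted p = 0.0006 from limma) and was higher after transfer by 0.86 (0.005), with KO below all other libraries. Cyb5r3 fell by 0.64 (0.000783), Fdxr by 1.09 (0.00181) and Cyb5a by 0.68 (0.00511).

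Haem synthesis changed less uniformly. Of 8 tested genes 3 fell and 1 rose, where 22.9% of all tested genes fell and 22.7% rose. Urod fell by 1.06 on the log2 scale (adjusted p = 0.000133 from limma), whereas Alas1, the first enzyme of the pathway, had a log2 fold change of 0.02 (standard error 0.38). Hmox1, which breaks haem down, rose by 1.37 (0.00237), and the biliverdin reductase gene Blvrb fell by 0.65 (0.00643), 1 call in each direction among 4 genes.

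Enzymes that act beside or after the P450 steps on eicosanoids fell in part. For the counts of this paragraph, 22.9% of all tested genes fell and 22.7% rose between control and KO. Ephx1 and Ephx2, the epoxide hydrolases, fell by 1.65 (adjusted p = 0.00056 from limma) and 1.56 (2.39e-05) on the log2 scale, and Pla2g4a, which releases arachidonic acid, rose by 0.77 (0.0126). Of the P450 enzymes that have no Cyp symbol, the prostacyclin synthase gene Ptgis, expressed in muscle and vessels, had 258, 275 and 196 normalized counts in control and 45.0, 60.1 and 30.7 in KO libraries and fell by 2.44 (0.000306). The thromboxane synthase gene Tbxas1, expressed in macrophages, had 41.4, 33.8 and 40.8 in control and 83.2, 90.1 and 130 in KO libraries and rose by 1.34 (0.00846). On the list for intestinal steroid synthesis, which holds no tested Cyp gene, of 8 tested genes 3 fell and 2 rose, among them the 3-beta-hydroxysteroid dehydrogenases Hsd3b2 (-2.58, adjusted p = 0.00023) and Hsd3b3 (-2.08, adjusted p = 0.000321).

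Markers of the cells that can hold these enzymes moved between the groups too. For the counts that follow, 22.9% of all tested genes fell and 22.7% rose between control and KO. For 13 epithelial markers 3 rose and 0 fell between control and KO, with a summed level of 329354 to 405599 in control and 392899 to 501102 in KO libraries. Among 11 markers of absorptive colonocytes 5 fell and 3 rose, and their sum was 357037 to 589144 in control, 83312 to 154288 in KO and 205743 to 610797 in transferred libraries. All 11 smooth muscle markers fell (sum 230578 to 289603 in control, 33389 to 48744 in KO and 100313 to 162210 in transferred libraries), as did 9 of 10 markers of enteric neurons and glia. For macrophages 8 of 11 markers rose and 1 fell, and all 8 T cell markers rose. Among markers that have values, none was at 0 in every library. The hepatocyte markers Serpina1a and Serpina3k and the adrenal cortex marker Nr5a1 have no values in the data, so this does not cover them. Alb, which defines hepatocytes, had 16.4 normalized counts or fewer in every library. The part of these shifts in the values of the members was not tested.

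Of the 15 members below a mean of 10, none exceeded 44.3 normalized counts in a library, and 12 had no read in at least 1 library. In 8 of them some library reached 10, namely Cyp2ab1, Cyp2c69, Cyp3a11, Cyp4f39, Cyp4x1, Cyp11a1, Cyp27b1 and Cyp24a1. Cyp11a1, the enzyme that starts steroid synthesis, had 0, 0 and 3.31 normalized counts in control, 0.979, 13.6 and 7.67 in KO and 0.913 to 5.72 in transferred libraries. Cyp24a1, which degrades vitamin D, reached 10.1 in transferred library 2 and 1.10 or fewer elsewhere. These genes were left out by the filter, and no test of them is given.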

How the data were processed

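Colon RNA was analysed in 3 control, 3 KO and 5 transferred libraries. The study's methods and the submitters' processing notes name alignment to GRCm39 (HISAT2 2.2.1, with STAR as another aligner in the methods), SAMtools 1.13, HTSeq 1.99.2 and DESeq2 1.40.2. The deposited signal values are normalized counts that the authors made by dividing the reads per gene by 1 factor per library. All values were whole multiples of 1 step (100% of values, tolerance 0.05), which gave back the reads. Libraries were stranded, but the counter's strand setting is not given in the sources used here. Overlapping genes are therefore uncertain.

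Groups followed the sample descriptions. The title of transferred library 5 gives the number 6. limma 3.58.1 (R 4.3.3) with a variance trend was fitted to log2(normalized count + 1), keeping genes that averaged 10 or more, all 3 groups in 1 fit, after a test on simulated data. The members and the gene lists were chosen with earlier results of these data known. Named were all tested members of the sterol, vitamin, retinoic acid, steroid and family 1 groups, up to 8 of families 2, 3 and 4 each with the smallest adjusted p between control and KO and up to 4 between control and transferred, the 5 most abundant, and up to 4 genes per list. The 8 remaining tested members and Adipoq, Nr1i2, Alas1 and Alb were named after their values were seen. Some genes of the lists are counted but not reported here by name. Alternatives were pseudocounts of 0.5 and 10, no filter or a mean of 50, quantile normalization, TMM, recovered reads tested with edgeR 4.0.16 or DESeq2 1.42.0, no trend, only both groups compared, the replicate block, the study's threshold (unadjusted p under 0.05, log2 fold change over 0.6) and each library left out. Coding sequences came from GENCODE on GRCm39 and promoters from RefSeq on GRCm38.p6. No pair of libraries within a group was similar enough to be counted as 1, and pairs from different groups were not compared in this way.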

Additional observations from a re-analysis of the deposited data

Results flagged for a closer look

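In 5 of the 39 tested members, 1 of the 5 transferred libraries stood apart from the other 4 (gap to the nearest library over the whole range of log2 values, critical value 0.71). Chance flags about 1 in 20 groups. Transferred library 5 was the low library for Cyp27a1 (292 normalized counts, ratio 0.793), Cyp4f17 (50.4, ratio 0.842) and Cyp4v3 (125, ratio 0.800). Transferred library 2 was low for Cyp2d34 (4645, ratio 0.733), and transferred library 4 was high for Cyp2r1 (17.1, ratio 0.801).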

How the results depend on the processing

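Between control and KO 21 members were called (16 to 24 under the alternatives, 19 to 25 with a library left out), and between KO and transferred colon 18 (15 to 20, and 14 to 20 with a library left out). The lowest counts under the alternatives, 16 and 15, came with a mean of at least 50, where 29 members were tested and no call among these was lost. No direction of a called member reversed. Between control and transferred colon the count of 1 became 0 without the variance trend, 0 with only both groups in the fit, 4 with DESeq2 and 6 at the study's threshold, and 0 to 5 with a library left out. The cause of these changes was not tested. Shares of all tested genes called under the alternatives are not given here, so the counts of this paragraph cannot be set against them. Deviations from the group means correlated at -0.102 to 0.386 between same-numbered libraries of different groups, and at -0.403 to 0.278 between differently numbered ones. The highest value was that of control library 1 with transferred library 1. Whether replicate numbers pair the libraries cannot be told from so few values. The replicate block gave 23, 20 and 4 calls in the 3 comparisons. Under the block the calls of Cyp1b1 (KO against control, adjusted p = 0.125 from limma) and Cyp39a1 (transferred against KO, 0.0583) were lost. Calls of members lost under other settings stand with their genes, except that Cyp51 (0.57 between control and KO) and Cyp39a1 (0.60 after transfer) missed the study's fold threshold. The limit of depth is greatest for the 10 tested members with a mean under 50, such as Cyp2f2 and Cyp1b1, where the added count of 1 shapes the fold change.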

Other observations

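The table also holds 6 rows with Cyp symbols that are annotated as pseudogenes and were left out of the family. Cyp2d37-ps, in the Cyp2d cluster, had 150, 99.4 and 70.6 normalized counts in control, 54.8, 47.5 and 96.4 in KO and 69.0 to 137 in transferred libraries (log2 fold change between control and KO -0.68, adjusted p = 0.123 from limma). Cyp2d34-ps had 1.88, 2.98 and 4.41 in control, 10.8, 9.69 and 9.86 in KO and 0.913 to 6.67 in transferred libraries, and was below the mean needed for the test. Each of its KO libraries exceeded each other library, whereas Cyp2d34 itself overlapped between the groups. Cyp4f41-ps had 15.9 to 28.7 in control and 15.3 to 21.5 in KO libraries (-0.16, adjusted p = 0.743).

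Between control and KO enteroendocrine and tuft cell markers also fell, 4 of 7 and 2 of 4, where 22.9% of all tested genes fell. Sct and Chga, which mark enteroendocrine cells, and Dclk1, which marks tuft cells, kept these calls between control and KO with any library left out. The calls of Chgb (adjusted p up to 0.161 from limma), Tph1 (up to 0.123) and Pou2f3 (up to 0.178) were lost without some single libraries, 5, 3 and 9 of them. After transfer 4 of 7 and 3 of 4 were higher, where 17.0% of all tested genes were higher. Without KO library 3 the calls after transfer were lost for Chga (adjusted p = 0.0561 from limma), Chgb (0.102) and Tph1 (0.101). The same held for the tuft cell markers Dclk1 (0.0948), Trpm5 (0.17) and Pou2f3 (0.113), which also lost them without some other single libraries. Of 8 goblet cell markers Spink4 fell and Zg16 rose, and the call of Zg16 was lost without each of 8 single libraries (adjusted p up to 0.174 from limma).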
